A study of Mus musculus with 10 samples.

Results

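The imprinted *Dlk1*-*Dio3* cluster of mouse chromosome 12 was followed through RNA-seq of mouse embryonic stem cells (mESCs) that were wild-type (WT) or lacked a scaffolding subunit of the histone deacetylase complex MiDAC. It was represented by 7 of the 34591 genes of the table: the maternal noncoding RNAs *Meg3*, *Rian* and *Mirg*, the paternal protein coding genes *Dlk1*, *Rtl1* and *Dio3*, and *Begain* at the proximal end. All 7 were present. They were chosen on their FPKM in these libraries, maternal noncoding RNAs against paternal coding genes, so their own differences between WT and KO cells are given as a description, without p-values.

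The cells were C57/BL6 mESCs of the Bruce-4 line, kept in 2iL medium, which holds LIF and inhibitors of MEK and GSK3β. They comprised the WT line and 4 KO clones, of which D2A7 and D1E6 lacked *Dnttip1* while E2E8 and E2G7 lacked *Elmsan1*. Each KO clone grew from a single sorted cell after CRISPR/Cas9 editing, so the libraries of a clone do not stand for separate editing events. No WT clone taken through the same steps is described. In every comparison with WT, the knockout therefore cannot be told apart from the editing and cloning of the KO lines. With 2 libraries of each of the 5 lines there were 10 libraries. Level is given as FPKM, fragments per kilobase of exon and per 1000000 fragments of a library total, which allows levels to be compared between genes. Whole fragments could be recovered from the FPKM values. They set the total behind the FPKM, taken as the library depth, at 31098275 to 37921230 fragments in WT and 48262691 to 86463933 in the KO clones. By this measure the WT libraries were the shallowest. The total was close to the fragments found on genes, so it need not hold all fragments sequenced. The targeted *Dnttip1* had 8.15 and 8.43 FPKM in WT and 2.59 to 4.57 FPKM in its 4 KO libraries. *Elmsan1*, listed as *C130039O16Rik*, had 5.53 and 5.39 FPKM in WT and 4.62 to 5.18 FPKM in its KO libraries, so its RNA is a weak check of those labels. It was higher in the *Dnttip1* KO libraries, at 7.79 to 8.68 FPKM (log2 fold change 0.59, adjusted p = 0.00972, limma, and 0.147 with the correlation within clones). The 8 stem cell markers examined were present in every library, and their summed level ran from 1185 to 1575 FPKM. Of the markers of other cell types, 5 neural ones had the highest summed level, at 52.0 to 97.5 FPKM. It was 0.131 to 0.588 FPKM for 7 fibroblast markers, 0.553 to 1.20 FPKM for 5 of extraembryonic endoderm, 4.63 to 6.79 FPKM for 4 of mesendoderm and 23.3 to 36.6 FPKM for 4 of trophoblast, nearly all of it *Tfap2c*.

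In an imprinted cluster, methylation set in the germ line marks the chromosome of one parent, and the copies of a gene inherited from mother and father are then used differently. At *Dlk1*-*Dio3* the mark lies between *Dlk1* and *Meg3* and is methylated on the paternal chromosome. The maternal chromosome, where it is unmethylated, makes the long noncoding RNAs and the microRNAs and small nucleolar RNAs (snoRNAs) within and between them, whereas the paternal chromosome makes the coding genes. In stem cell cultures this cluster is known for losing its maternal RNAs in some lines. Parental origin was not measured here, since the table has a single value for each gene and library, and "maternal" and "paternal" name only the usual expression of a gene.

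On the build the authors aligned to (NCBIM37, annotated with GENCODE vM1), the cluster spans 1249 kb of chromosome 12, from 110270397 to 111519307. *Begain* (110270397 to 110291589, - strand) comes first, followed by *Dlk1* (110691033 to 110701546, + strand) and, 77.7 kb further on, by *Meg3* (110779211 to 110809936, + strand). *Rtl1* (110827404 to 110838540) lies on the - strand between *Meg3* and *Rian* (110842155 to 110899919, + strand), and *Mirg* (110973191 to 110987665, + strand) follows. A gap of 529.6 kb separates *Mirg* from *Dio3* (111517278 to 111519307, + strand), which has the noncoding *Dio3os* (111513594 to 111516278) before it, read in the opposite direction. The promoters of *Meg3* and *Dio3* are shown because *Meg3* heads the maternal RNAs and *Dio3* is the coding gene whose level differed most between the lines. They are RefSeq windows (GRCm38.p6) from 250 bases before to 50 after the RefSeq start, each with 1 perfect match in NCBIM37, whose coordinates are given. CpG sites, where DNA is methylated, are in capitals.
Meg3, chr12:110778956-110779255, + strand: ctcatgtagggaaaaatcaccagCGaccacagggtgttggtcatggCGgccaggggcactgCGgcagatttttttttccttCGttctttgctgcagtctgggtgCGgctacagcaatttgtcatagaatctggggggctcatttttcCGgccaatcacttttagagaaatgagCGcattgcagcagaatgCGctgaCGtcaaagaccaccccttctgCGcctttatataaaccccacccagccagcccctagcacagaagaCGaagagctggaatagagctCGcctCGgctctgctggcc
Dio3, chr12:111517190-111517489, + strand: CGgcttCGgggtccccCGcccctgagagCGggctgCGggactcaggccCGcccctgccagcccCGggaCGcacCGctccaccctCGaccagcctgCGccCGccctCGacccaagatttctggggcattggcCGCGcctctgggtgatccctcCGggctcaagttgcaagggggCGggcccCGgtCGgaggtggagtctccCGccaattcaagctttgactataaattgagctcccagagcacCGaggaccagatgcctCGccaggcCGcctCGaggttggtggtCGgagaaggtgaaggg
The *Meg3* window shown held 13 CpG sites, and 37.9% of the 32851 promoters of this length held at least as many. That of *Dio3* held 25, which 18.4% of promoters reached. RefSeq has a second *Meg3* window, at chr12:110783358-110783657, with 1 CpG site, which 94.6% of promoters reached. The *Dio3os* window held 53 and that of *Rian* held 0, against a median of 7 over all promoters. The hexamer TGCCGC, the motif of ZFP57, which protects imprints, was searched on both strands. It occurred 1 time in the *Meg3* window shown and 0 times in the second *Meg3* window and in that of *Dio3*, and 11.6% of all promoters held it. These matches describe the letters of the windows and are not sites of binding.

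The microRNAs of the cluster are many. Of 59 microRNA genes in the table between *Begain* and *Dio3*, 51 had a RefSeq entry, with 94 different mature sequences and 88 seeds (bases 2 to 8, which pair with a target). More than 1 mature sequence carried the seed in 6 cases. The microRNAs read from the strand opposite *Rtl1* are shown first, with 1 mature sequence a gene, because they are complementary to the *Rtl1* message. Seeds are in capitals.
miR-431-3p: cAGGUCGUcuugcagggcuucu
miR-433-3p: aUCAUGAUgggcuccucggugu
miR-127-3p: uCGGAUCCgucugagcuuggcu
miR-434-3p: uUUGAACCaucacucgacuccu
miR-136-5p: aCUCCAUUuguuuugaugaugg
miR-432: uCUUGGAGuagaucagugggcag
No 2 of these 6 share a seed. Of the pairs with a common seed, 3 from further along the + strand are shown to make the repetition within the cluster visible.
miR-379-3p: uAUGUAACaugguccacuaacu
miR-411-3p: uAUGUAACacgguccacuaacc
miR-379-5p: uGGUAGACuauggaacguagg
miR-1193-5p: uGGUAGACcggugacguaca
miR-410-5p: aGGUUGUCugugaugaguucg
miR-494-5p: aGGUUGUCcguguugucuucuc
In each of these pairs the seed is the same and bases outside it differ.

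All 3 maternal noncoding RNAs were lower in the 4 KO clones than in WT. Knockout and clonal origin cannot be told apart in this difference, since no WT clone is described. *Meg3*, a long noncoding RNA at the head of the maternal transcription unit, had 0.213 and 0.242 FPKM in the WT libraries. Its level was 0.00979 and 0.00832 FPKM in D2A7, 0.00458 and 0.00355 FPKM in D1E6, 0.00146 and 0 FPKM in E2E8 and 0.00412 and 0.00192 FPKM in E2G7. Both WT libraries lay above all 8 KO libraries. In whole fragments, the WT libraries together held 286, while D2A7 held 19, D1E6 held 8, E2E8 held 2 and E2G7 held 9, out of larger totals. Relative to depth, *Meg3* was at 3.98% of the WT rate in D2A7 (95% exact interval 2.36% to 6.32%), 1.75% in D1E6 (0.746% to 3.49%), 0.338% in E2E8 (0.0407% to 1.23%) and 1.30% in E2G7 (0.589% to 2.50%). All such intervals cover counting error and not the spread between libraries or clones. In bulk RNA, fewer cells with a transcript and less transcript per cell cannot be told apart.

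*Rian*, which hosts snoRNAs, was the most abundant of the 3 in WT. The WT libraries had 1.54 and 1.53 FPKM. The level was 0.108 and 0.0550 FPKM in D2A7, 0.0303 and 0.0548 FPKM in D1E6, 0.00161 and 0.00363 FPKM in E2E8 and 0.0318 and 0.0494 FPKM in E2G7. The E2E8 libraries were the lowest and did not overlap with those of any other line, while D1E6 and E2G7 overlapped. With 868 fragments in WT and 79, 40, 3 and 56 in D2A7, D1E6, E2E8 and E2G7, *Rian* had the largest count of the 3 RNAs behind it. Relative to WT it stood at 5.45% (4.27% to 6.86%) in D2A7, 2.88% (2.04% to 3.95%) in D1E6, 0.167% (0.0344% to 0.489%) in E2E8 and 2.67% (2.00% to 3.49%) in E2G7.

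*Mirg*, which hosts distal microRNAs, had 0.314 and 0.432 FPKM in WT. It had 0.0304 and 0.0296 FPKM in D2A7, 0 and 0.0101 FPKM in D1E6, 0 and 0.00469 FPKM in E2E8 and 0.0117 and 0.00729 FPKM in E2G7. Again no KO library reached the WT range. No KO library held more than 6 fragments of *Mirg*, so the order of the clones was not resolved for this RNA alone. Its rate was 7.93% of WT in D2A7 (3.81% to 14.9%), 1.504% in D1E6 (0.179% to 5.61%), 0.582% in E2E8 (0.0146% to 3.33%) and 2.49% in E2G7 (0.788% to 6.05%).

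**Figure D1:**
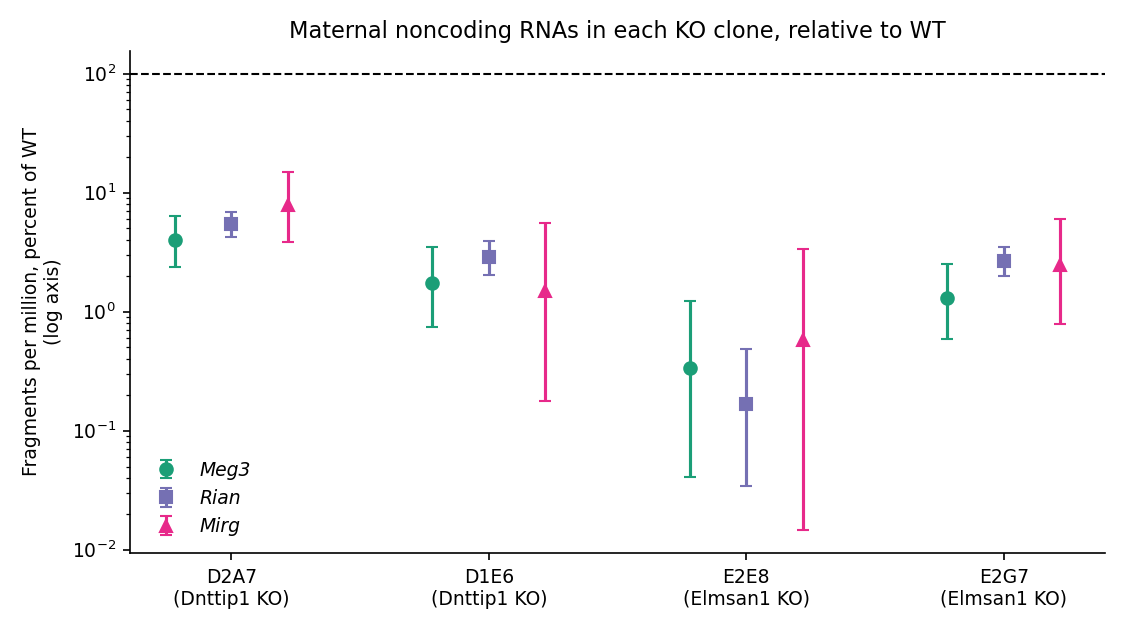
Fragments per 1000000 of *Meg3*, *Rian* and *Mirg* in each KO clone as a percentage of WT (log axis, dashed line at WT), with 95% exact intervals for counting error over the 2 libraries of a clone. All points lie between 0.167% and 7.93% of WT, and the point of E2E8 is the lowest for each RNA.

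Summed over the 3 RNAs, WT had a rate of 17.9 fragments per 1000000 (16.9 to 18.9). D2A7 had 0.945 (0.776 to 1.14), D1E6 had 0.452 (0.336 to 0.596), E2G7 had 0.419 (0.327 to 0.529) and E2E8 had 0.0420 (0.0154 to 0.0914). The intervals of D1E6 and E2G7 overlapped, whereas D2A7 lay above both and E2E8 below both. These intervals leave out the spread between libraries. For *Rian*, the D2A7 libraries stood at 0.885 and 0.451 fragments per 1000000, and D1E6 replicate 2 stood at 0.449. *Rian* made up 71.6% of the summed level per length of exon in WT and 68.1%, 82.0% and 76.7% in D2A7, D1E6 and E2G7. In E2E8 it made up 46.2%, a share that rests on 6 fragments in all.

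By the study's rule for a changed gene (1.5-fold or more, with p below 0.01 before adjustment), 5 of the 7 genes could be examined against WT, since *Dlk1* and *Rtl1* did not reach the minimum of 0.1 FPKM in 2 libraries. *Meg3*, *Rian* and *Mirg* passed this minimum through the WT libraries, where they were high, so they had to differ. Of the KO libraries, 1 of D2A7 also reached it, for *Rian*. They were the 3 genes called lower in *Dnttip1* KO, where 3.25% of all 17434 genes were called lower and 6.51% were called in either direction. They were also the 3 called lower in *Elmsan1* KO, where 3.68% of 17212 genes were called lower and 6.43% in either direction. Nothing is read from these counts, because the genes were chosen on the same contrast.

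On the log2(FPKM + 0.1) scale the fitted fold changes of *Meg3*, *Rian* and *Mirg* were -1.63 (SE 0.19), -3.38 (SE 0.23) and -2.02 (SE 0.23) in *Dnttip1* KO. In *Elmsan1* KO they were -1.70 (SE 0.19), -3.79 (SE 0.23) and -2.16 (SE 0.20). The added 0.1 FPKM understates such changes, and their size is better read from the percentages of WT. The median over the 3 RNAs was -2.02 in *Dnttip1* KO and -2.16 in *Elmsan1* KO, beside a median over all genes of 0.024 and 0.0030. Both knockouts were compared with the same 2 WT libraries, so their values are not independent of each other.

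The paternal coding genes did not share a direction. *Dlk1*, a membrane protein related to the NOTCH ligands, had 0.0227 and 0.00932 FPKM in WT, from 4 and 2 fragments. In the KO libraries it had 0 to 0.00665 FPKM, from 0 to 3 fragments each. All 8 lay below both WT values. The rate was 20.4% of WT in *Dnttip1* KO, with an interval from 4.23% to 85.9%, and 18.6% of WT in *Elmsan1* KO, with one from 4.48% to 73.0%. With 6 fragments in the 2 WT libraries, *Dlk1* was near the limit of detection in every line, and the size of its difference was not resolved at this depth. *Rtl1*, a protein derived from a retrotransposon Gag gene, had 0 fragments in all 10 libraries. A count of 0 allows up to 3 fragments, or 0.00546 to 0.0152 FPKM depending on the library. Of the paternal coding genes, *Dio3* alone was high enough to be fitted, so no median over them is given.

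*Dio3*, the deiodinase that inactivates thyroid hormone, differed between the lines in size and in direction. It had 1.12 and 1.08 FPKM in WT. In the *Dnttip1* KO clones it had 6.33 and 7.17 FPKM in D2A7 and 1.57 and 1.96 FPKM in D1E6, all above WT. In the *Elmsan1* KO clones it had 0.117 and 0.271 FPKM in E2E8, below WT, and 1.92 and 2.00 FPKM in E2G7, above WT. From high to low, the order of the lines was D2A7, E2G7, D1E6, WT and E2E8, and of the neighbours in this order E2G7 and D1E6 overlapped. The line means were 6.75 ± 0.595 FPKM (SD, n = 2) in D2A7, 1.96 ± 0.0567 FPKM in E2G7, 1.77 ± 0.274 FPKM in D1E6, 1.10 ± 0.0329 FPKM in WT and 0.194 ± 0.109 FPKM in E2E8.

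In fragments per 1000000, *Dio3* stood at 611% of WT in D2A7 (517% to 726%), 163% in D1E6 (135% to 197%), 178% in E2G7 (150% to 214%) and 17.2% in E2E8 (12.4% to 23.6%). The fitted log2 fold changes against WT were 2.49 in D2A7, 0.60 in D1E6, -2.11 in E2E8 and 0.76 in E2G7, each with an SE of 0.23. *Dio3* met the study's rule in D2A7, where 16.3% of all genes were called, and in E2E8, where 16.1% were, but not in D1E6 (11.0%) or E2G7 (9.95%). Between the clones of a genotype, it met the rule in D2A7 against D1E6 (13.1% of genes called) and in E2E8 against E2G7 (12.5%). As with the maternal RNAs, nothing is read from this, because *Dio3* was chosen on its values in these libraries. With clones pooled, its log2 fold change was 1.54 (SE 0.67) in *Dnttip1* KO and -0.67 (SE 1.01) in *Elmsan1* KO, and in neither did it meet the rule. The pooled *Elmsan1* value stands for no clone, since the clones lay on opposite sides of WT. *Dio3* and *Begain* were the 2 of the 7 genes high enough to be compared between the knockouts, and 0 of them were called there, while 1.52% of all genes were.

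The order of the KO clones by *Dio3* was D2A7 first, E2G7 and D1E6 together and E2E8 last, and the order by the summed maternal RNAs was the same. WT took different places in the 2 orders, as it was highest for the maternal RNAs and below 3 of the 4 clones for *Dio3*. This is a description of 4 clones whose genes were chosen on these values. Summed markers of other cell types also differed between the clones. The summed level of 5 neural markers was 52.0 to 53.9 FPKM in E2E8, 60.0 to 63.8 in WT and 84.4 to 87.2 in D2A7. It was 95.7 to 95.9 in D1E6 and 97.2 to 97.5 in E2G7, and *Tubb3* and *Nes* gave most of it. The sum does not stand for each of its genes. *Mtap2* had a mean of 1.46 FPKM in WT, 0.624 in D2A7, 0.708 in D1E6, 1.28 in E2E8 and 0.961 in E2G7. All 8 KO libraries lay below both WT libraries for *Mtap2* and above both for *Nes*. Both genes were called in *Dnttip1* KO, and of them *Nes* alone in *Elmsan1* KO. The summed level of the 8 stem cell markers was lowest in E2E8, at 1185 to 1190 FPKM, and highest in D2A7, at 1561 to 1575 FPKM. The 7 fibroblast markers summed to 0.449 to 0.588 FPKM in D2A7 and at most 0.262 FPKM elsewhere. Only *Thy1* of the 7 was high enough to be tested, with a log2 fold change of 1.14 in D2A7. It reached 0.444 FPKM, and the next highest, *Col1a1*, reached 0.103 FPKM. *Col3a1* was at 0 in both libraries of WT, E2E8 and E2G7, *Lum* in those of WT and *Postn* in those of D1E6 and E2E8. The part of such differences in the values of *Dio3* was not tested.

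**Figure D2:**
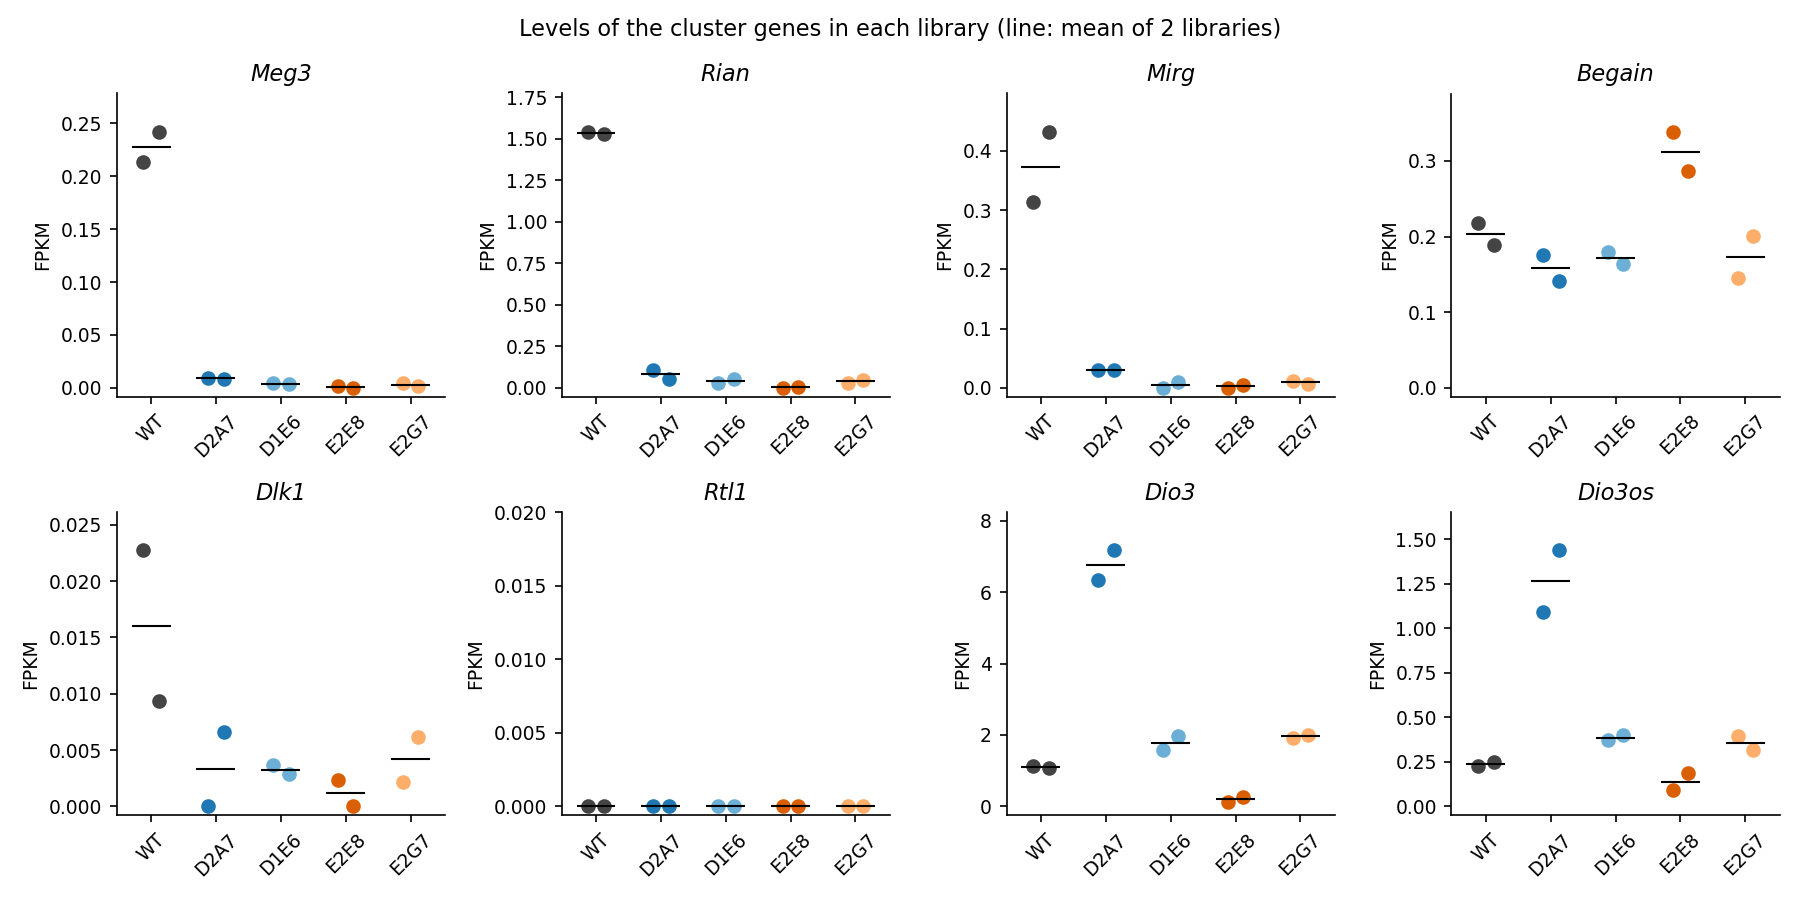
FPKM of the 7 cluster genes and of *Dio3os* in each library (points, 2 a line) with the line means (short lines), on linear axes that differ between panels. WT stands alone in the panels of *Meg3*, *Rian* and *Mirg*, while in those of *Dio3* and *Dio3os* D2A7 is highest and E2E8 lowest.

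*Begain*, whose protein associates with a scaffold of the synapse, differed less than *Dio3*. It had 0.218 and 0.189 FPKM in WT, 0.176 and 0.142 FPKM in D2A7, 0.180 and 0.163 FPKM in D1E6, 0.338 and 0.287 FPKM in E2E8 and 0.145 and 0.201 FPKM in E2G7. Both E2E8 libraries lay above all others, those of D2A7 and D1E6 lay just below WT, and those of E2G7 overlapped with WT. The rate in E2E8 was 155% of WT (107% to 231%), and the intervals of the other 3 clones included 100%. The fitted log2 fold change was -0.21 (SE 0.18) in *Dnttip1* KO and 0.12 (SE 0.28) in *Elmsan1* KO, and neither met the rule. Between E2E8 and E2G7 it was 0.59 (SE 0.17), just past a fold change of 1.5, and it was as low as 0.45 with 1 library left out and 0.16 with a pseudocount of 1.

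*Dio3os*, a noncoding RNA that starts beside *Dio3* on the other strand, was not among the 7 genes, so its differences were tested, although it lies beside *Dio3* and is no independent gene of the region. Library preparation kept the strand, but whether the counting used it is not given in the sources used here, so reads of overlapping partners may not be separated, although the annotated genes lie 1000 bases apart. It had 0.226 and 0.247 FPKM in WT, 1.09 and 1.44 FPKM in D2A7, 0.372 and 0.401 FPKM in D1E6, 0.0927 and 0.186 FPKM in E2E8 and 0.397 and 0.316 FPKM in E2G7. As with *Dio3*, D2A7 was highest, E2G7 and D1E6 overlapped, and E2E8 lay below WT. It rose in D2A7 against WT by a log2 fold change of 2.00 (SE 0.21, adjusted p = 0.000192, limma over all genes tested, both libraries above WT). It was higher in D2A7 than in D1E6 by 1.49 (SE 0.21, adjusted p = 0.000977, limma) and lower in E2E8 than in E2G7 by a log2 fold change of -0.96 (SE 0.21, adjusted p = 0.00771, limma). The last call was lost when E2E8 replicate 1 (-0.68) or E2G7 replicate 1 (-0.83) was left out, and with a pseudocount of 1 (-0.25). By limma, *Dio3os* was not called against WT in D1E6 (0.51, adjusted p = 0.0966), E2E8 (-0.54, adjusted p = 0.0685) or E2G7 (0.42, adjusted p = 0.162), nor in either knockout with clones pooled. In E2E8 it was called once E2E8 replicate 2 was left out (-0.82, adjusted p = 0.0196, limma). These clone tests pool their spread over the libraries of the 5 lines and say nothing about other clones. Where a library was left out, the one remaining was assumed to vary like those of the other lines. The level of *Dio3* over that of *Dio3os* was 4.98 and 4.36 in WT, 4.23 to 6.33 in D2A7, D1E6 and E2G7, and 1.26 and 1.46 in E2E8.

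The small RNA genes of the cluster gave few fragments. Total RNA protocols of this kind are not made to capture mature microRNAs, and a fragment counted there can come from longer precursor RNA. Of the 64 microRNA and snoRNA genes, 57 lie on the + strand, the strand of the maternal RNAs, and 7 on the - strand. The + strand genes, 4937 bases in all, held 14 and 43 fragments in the WT libraries. They held 3 and 1 fragments in D2A7, 4 and 3 in D1E6, 0 and 0 in E2E8 and 2 and 1 in E2G7. Every KO library had fewer than either WT library, although the WT libraries themselves differed, at 0.450 and 1.13 fragments per 1000000. Relative to depth, the *Dnttip1* KO clones together had 5.90% of the WT rate (2.79% to 11.4%). The *Elmsan1* KO clones had 1.17% of it (0.235% to 3.60%), and the 0 fragments of E2E8, set at 3, make its rate at least 39.3-fold lower than that of WT. The 7 genes of the - strand held 0 fragments in all 10 libraries.

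The 39 small RNA genes of the + strand that lie outside the annotated spans of *Meg3*, *Rian* and *Mirg* held 6 and 34 fragments in WT and 0 to 4 in each KO library. Their rate in the *Dnttip1* KO clones was 6.11% of WT (2.47% to 13.2%). In the *Elmsan1* KO clones it was 0.557% of WT (0.0138% to 3.28%). The 6 genes opposite *Rtl1*, for each of which 1 mature sequence is given above, held 1 and 8 fragments in WT and at most 2 in a KO library. In *Mir127* the WT libraries held 3 fragments and the 8 KO libraries 4, while *Mir431* held 2 and 0. For single genes of this kind no library held more than 6 fragments, so no fold change is given. Of the 57 genes, 26 had a fragment in WT, and 19 of these had none in any KO library.

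**Figure D3:**
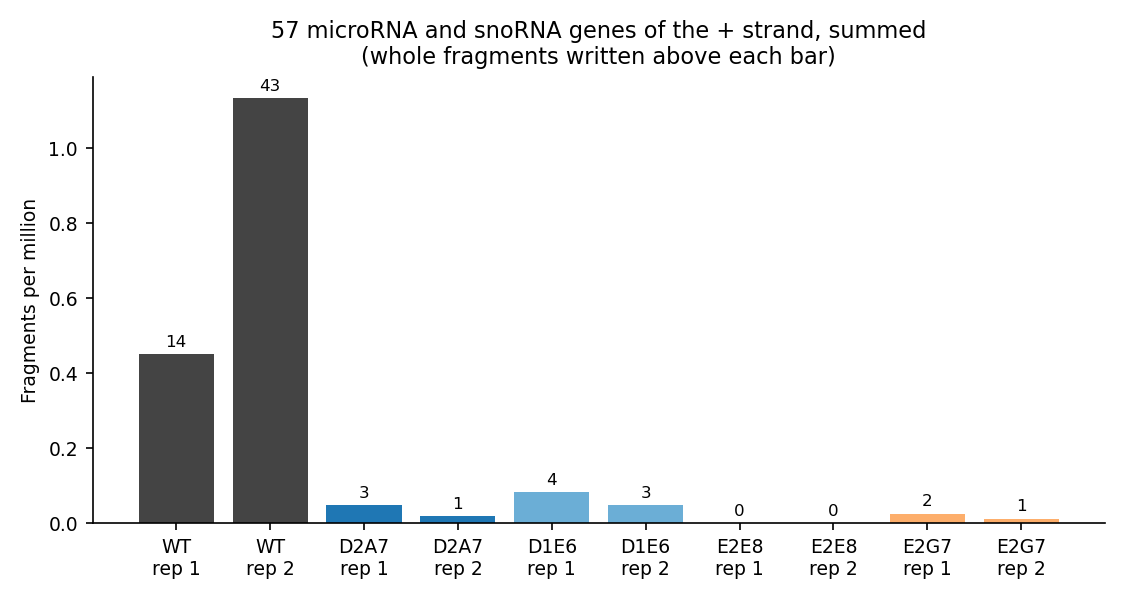
Summed fragments per 1000000 of the 57 microRNA and snoRNA genes of the + strand in each library, with the whole fragments above each bar. The WT bars stand at 0.450 and 1.13 fragments per 1000000, and the highest KO bar, that of D1E6 replicate 1, rests on 4 fragments.

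The genes beyond the ends of the cluster were called about as often as other genes in *Dnttip1* KO (5.56% of them, beside 6.51% of all genes) and at a higher share, on 2 genes, in *Elmsan1* KO (11.1%, beside 6.43%). Of the 10 nearest coding genes on each side, 18 of 20 were high enough to be tested. In *Dnttip1* KO 0 were higher and 1 was lower, with a median log2 fold change of -0.03. In *Elmsan1* KO 0 were higher and 2 were lower, with a median of -0.02. The range over the 18 genes was -0.78 to 0.55 in *Dnttip1* KO and -1.20 to 0.60 in *Elmsan1* KO. *Wdr25*, the nearest before *Begain*, had log2 fold changes of 0.07 (SE 0.14) and 0.28 (SE 0.23), and *Ppp2r5c*, a regulatory subunit of a phosphatase and the nearest after *Dio3*, had -0.13 (SE 0.09) and -0.08 (SE 0.10).

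The lower genes were *Eml1*, a microtubule-binding protein, and *Stk30*. *Eml1*, whose start is at -1170.0 kb from that of *Meg3*, had 0.644 and 0.518 FPKM in WT and 0.172 to 0.377 FPKM in the 8 KO libraries, so that all KO libraries lay below WT. Its log2 fold change was -0.78 (SE 0.21, adjusted p = 0.0706, limma) in *Dnttip1* KO and -1.20 (SE 0.18, adjusted p = 0.0141, limma) in *Elmsan1* KO. With the correlation within clones estimated, the adjusted p was 0.466 and 0.293, and neither was called. The *Dnttip1* KO call was also lost without either WT library and without D2A7 replicate 1, D1E6 replicate 1 or D1E6 replicate 2, at log2 fold changes of -0.62 to -0.94. *Stk30* had 5.03 and 5.15 FPKM in WT and 2.38 to 2.82 FPKM in *Elmsan1* KO, with all 4 libraries below WT. Its log2 fold change was -0.96 (SE 0.10, adjusted p = 0.00500, limma, and 0.0795 with the correlation within clones). In *Dnttip1* KO it was -0.61 (SE 0.25), with all 4 libraries below WT, and was not called. By line, *Stk30* was called in D1E6 (-0.96) but not in D2A7 (-0.27). Over the 607 genes of chromosome 12 tested by line, the median log2 fold change was -0.09 to -0.0006, against -0.01 to 0.04 over other genes.

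**Figure D4:**
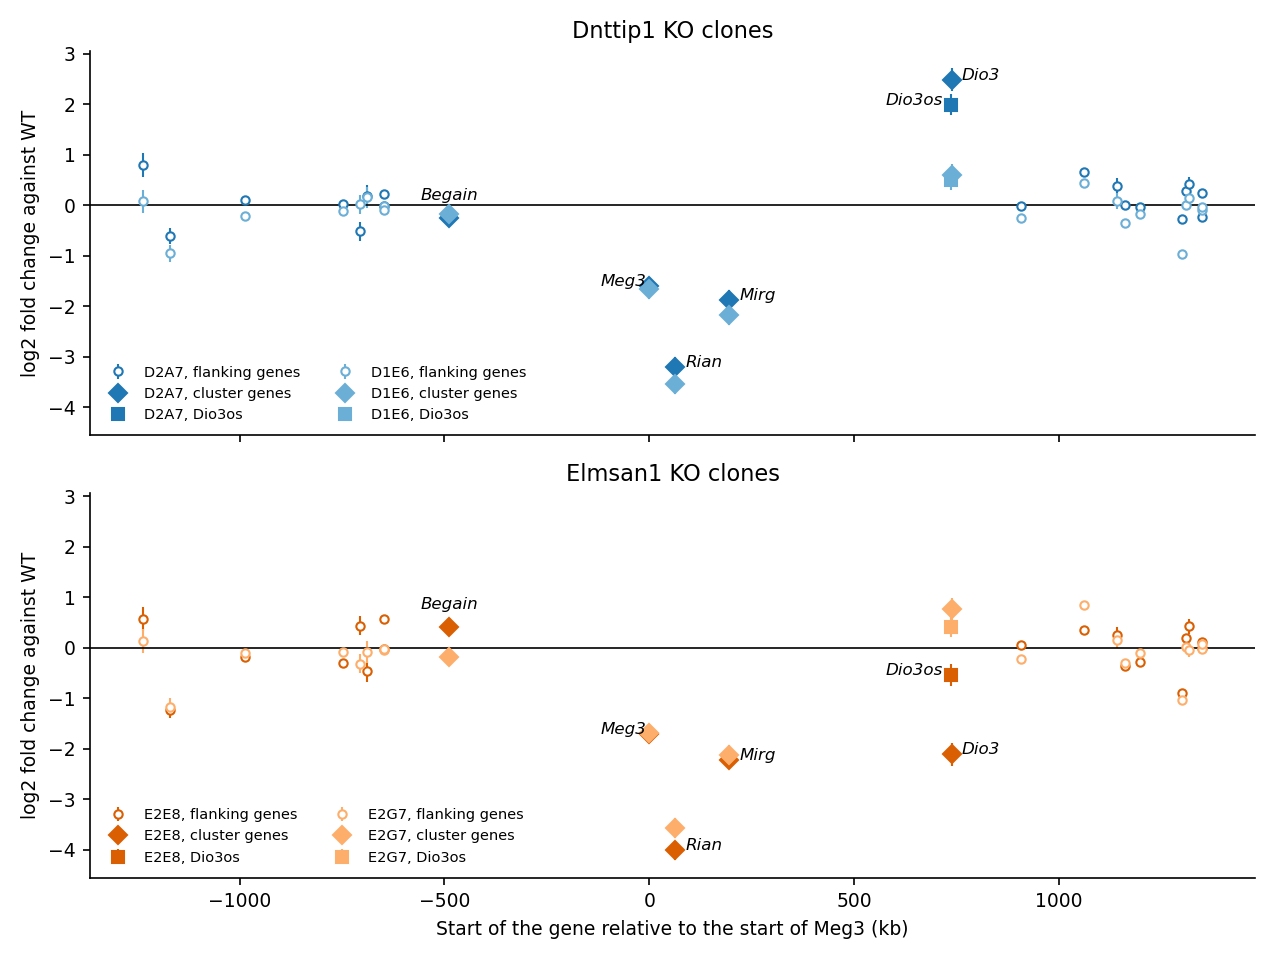
Fitted log2 fold change against WT, with SE, of cluster genes (filled diamonds), *Dio3os* (squares) and 18 flanking genes (open circles) by the distance of their start from that of *Meg3* in kb, for the *Dnttip1* KO clones (top) and the *Elmsan1* KO clones (bottom). *Meg3*, *Rian* and *Mirg* lie between -1.60 and -4.01 in all 4 clones, while *Dio3* reaches 2.49 in D2A7 and -2.11 in E2E8.

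Few regulators of the cluster were called when clones were pooled. The list held 24 genes, all of them tested, for DNA methylation and its removal, the ZFP57 and TRIM28 silencing of imprints, Polycomb repression and enhancer or insulator function. In *Dnttip1* KO 1 was higher and 0 were lower, which is 4.17% of the list beside 6.51% of all genes. In *Elmsan1* KO 0 were higher and 1 was lower, likewise 4.17% beside 6.43%. The median log2 fold change was 0.04 and -0.01.

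The gene that rose in *Dnttip1* KO was *Dnmt3l*, the cofactor of the enzymes that methylate DNA anew. It had 5.74 and 6.44 FPKM in WT, 15.5 and 15.5 FPKM in D2A7, 29.4 and 28.7 FPKM in D1E6, 2.91 and 3.14 FPKM in E2E8 and 16.1 and 15.4 FPKM in E2G7. All 4 *Dnttip1* KO libraries lay above WT, whereas the *Elmsan1* KO clones lay on opposite sides of it. The log2 fold change in *Dnttip1* KO was 1.76 (SE 0.31, adjusted p = 0.0265, limma), with an adjusted p = 0.0870 when the correlation within clones was estimated. Without WT replicate 1 it was 1.71 and no longer called (adjusted p = 0.189, limma). Over the 19 alternatives the adjusted p ran from 0.0236 to 0.189. By line, *Dnmt3l* rose in D2A7 (1.32), D1E6 (2.21) and E2G7 (1.34) and fell in E2E8 (-1.01), with adjusted p of 7.14e-07 to 4.40e-06 in limma.

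The gene that fell in *Elmsan1* KO was *Zfp57*, the zinc finger protein that keeps methylation at imprinted control regions. It had 72.6 and 80.0 FPKM in WT and 44.5 to 46.9 FPKM in the 4 *Elmsan1* KO libraries, all below WT. The log2 fold change was -0.75 (SE 0.05, adjusted p = 0.00173, limma, and 0.0397 with the correlation within clones, within a range over the alternatives of 0.00141 to 0.0479). In D1E6 it had 50.2 and 53.9 FPKM, a log2 fold change of -0.58 that fell just short of a fold change of 1.5 (adjusted p = 7.17e-05, limma). In D2A7 it had 72.8 and 78.7 FPKM, within the WT range, with a log2 fold change of -0.03. In that clone the 3 maternal RNAs together stood at 5.27% of WT (4.30% to 6.42%). A part of *Zfp57* in the level of the maternal RNAs was not tested in any clone.

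By line, 4 of the 24 regulators were called in D2A7, 2 in D1E6, 5 in E2E8 and 3 in E2G7. These shares of 16.7%, 8.33%, 20.8% and 12.5% were near those over all genes (16.3%, 11.0%, 16.1% and 9.95%). In E2E8 all 5 were lower. Besides *Dnmt3l* and *Zfp57* they were *Tet2*, a dioxygenase that oxidises methylated cytosine (-1.63, SE 0.03), the de novo methyltransferase *Dnmt3b* (-1.49, SE 0.04) and the Polycomb cofactor *Jarid2* (-0.65, SE 0.02). *Dnmt3b* had 3.67 to 3.86 FPKM in E2E8 and 10.3 to 15.4 FPKM in the other 8 libraries. *Tet2* had 5.60 to 5.61 FPKM in E2E8 and 11.1 to 21.6 FPKM in the others. E2E8 also had the lowest maternal RNAs and *Dio3*. With 1 such clone, these differences cannot be told apart from one another.

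**Figure D5:**
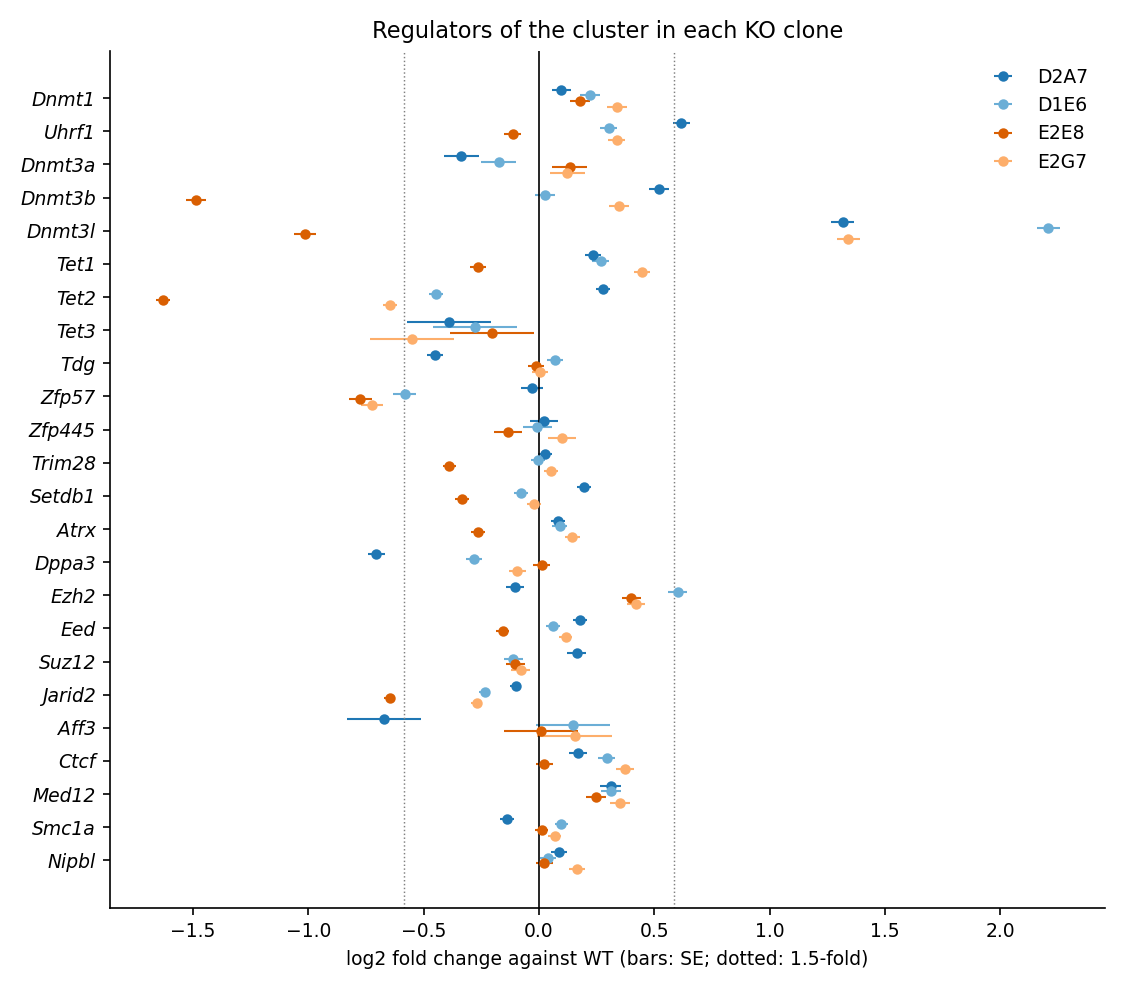
Log2 fold change against WT of 24 regulators of the cluster in each KO clone, with SE (bars) and the 1.5-fold limits (dotted). *Dnmt3l* runs from -1.01 in E2E8 to 2.21 in D1E6, and *Tet2* and *Dnmt3b* are lowest in E2E8, at -1.63 and -1.49.

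Partners and paralogues of the 7 proteins and of microRNA processing made a list of 22 genes, of which 13 were high enough to be tested. In *Dnttip1* KO 1 was higher and 2 were lower, which is 23.1% of the list beside 6.51% of all genes. In *Elmsan1* KO 1 was higher and 1 was lower, or 15.4% beside 6.43%. The list was chosen with earlier results of these data known, so these shares are a description. The median log2 fold change was 0.02 and -0.01. *Peg10*, a retrotransposon-derived paralogue of *Rtl1* and itself imprinted, was lower in both. It had 11.8 and 12.4 FPKM in WT and 0.00966 to 0.768 FPKM in the 8 KO libraries. Its log2 fold change was -5.34 (SE 1.01, adjusted p = 0.0303, limma) in *Dnttip1* KO and -4.22 (SE 0.19, adjusted p = 0.00102, limma) in *Elmsan1* KO, with all KO libraries below WT. The first call was lost without WT replicate 1 or 2, at -5.34 in both cases. Of the NOTCH receptors, the partners of *Dlk1*, *Notch1* rose in *Dnttip1* KO (0.79, SE 0.18, adjusted p = 0.0467, limma). *Notch3* rose in *Elmsan1* KO (0.69, SE 0.12, adjusted p = 0.0175, limma). Each had 4 of 4 libraries above WT there, and likewise in the other knockout, where it was not called. *Dlg4*, a synaptic scaffold that binds the *Begain* product, was lower in *Dnttip1* KO (-0.75, SE 0.19, adjusted p = 0.0616, limma). In *Elmsan1* KO it was at -0.66 and not called, with 4 of 4 libraries below WT. Leaving out either WT library ended the calls of *Notch1* (0.80 and 0.79) and *Dlg4* (-0.67 and -0.83) too, so the count of this list in *Dnttip1* KO then fell to 0. *Notch1* was also lost without D2A7 replicate 1 (0.74), and *Dlg4* without D2A7 replicate 1 (-0.70), D2A7 replicate 2 (-0.73) or D1E6 replicate 2 (-0.74). With the correlation within clones, *Notch3* had an adjusted p = 0.238 and *Dlg4* an adjusted p = 0.475 in limma, and neither was called. *Notch1* had an adjusted p = 0.185 in that fit.

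Other imprinted genes were called lower more often than higher. The list held 58 genes, of which 54 were matched, and *Peg10* is in this list as well. In *Dnttip1* KO 42 were tested, 3 were higher and 7 were lower, with a median log2 fold change of -0.20. In *Elmsan1* KO 41 were tested, 1 was higher and 5 were lower, with a median of -0.08. The share called was 23.8% in *Dnttip1* KO, where 6.51% of all genes were called, and 14.6% in *Elmsan1* KO, where 6.43% were. As this list was also chosen with earlier results of these data known, its shares are a description. Of genes usually expressed from the paternal chromosome, 6 of 23 were lower and 0 higher in *Dnttip1* KO, and 5 of 22 were lower and 0 higher in *Elmsan1* KO. Of genes usually expressed from the maternal chromosome, 1 of 19 was lower and 3 were higher in *Dnttip1* KO, and 0 of 19 were lower and 1 was higher in *Elmsan1* KO. *H19* was the 1 usually maternal gene called lower.

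*H19*, a maternal noncoding RNA of another cluster, had 0.600 ± 0.110 FPKM in WT (SD, n = 2) and 0.0751 ± 0.0503 FPKM in *Dnttip1* KO (SD, n = 4), a log2 fold change of -2.06 (SE 0.32, adjusted p = 0.0175, limma). In the *Elmsan1* KO libraries it had 0.00488 to 0.358 FPKM, below WT but not called. *Sgce*, which shares its promoter region with *Peg10*, was lower in both (-2.80, SE 0.37, adjusted p = 0.0115, and -1.94, SE 0.31, adjusted p = 0.0154, limma). *Zrsr1* (-0.65 and -0.70) and *Sfmbt2* (-0.91 and -0.76), a Polycomb-related gene, were also lower in both. *Nnat* (-3.04, adjusted p = 0.0112, limma) and *Ndn* (-0.85, adjusted p = 0.00930, limma), both known for neuronal expression, were lower in *Dnttip1* KO, and *Mcts2* (-0.61, adjusted p = 0.0106, limma) in *Elmsan1* KO. The higher genes were *Phlda2* (1.02), *Osbpl5* (0.70) and *Slc22a18* (0.60), neighbours of 1 maternally expressed cluster, in *Dnttip1* KO, and *Copg2* (0.66) in *Elmsan1* KO. With the correlation within clones, *Osbpl5* (adjusted p = 0.497, limma), *Copg2* (0.217) and *Mcts2* (0.217) were no longer called. In *Dnttip1* KO this adjusted p was 0.150 for *H19*, 0.113 for *Nnat* and *Ndn*, 0.140 for *Phlda2* and 0.167 for *Slc22a18*. For *Sgce*, *Zrsr1* and *Sfmbt2* it was 0.0720, 0.0984 and 0.103 in *Dnttip1* KO and 0.110, 0.141 and 0.133 in *Elmsan1* KO. For *Peg10* it was 0.0912 in *Dnttip1* KO and 0.00927 in *Elmsan1* KO. Single libraries decided some of these calls. Without WT replicate 1, *Osbpl5* (0.49), *Phlda2* (1.02), *Copg2* (0.59) and *Mcts2* (-0.52) were not called, and without WT replicate 2, *Phlda2* (1.01), *Slc22a18* (0.54) and *Copg2* (0.73) were not. *Copg2* was also lost without either E2E8 library (0.57 and 0.59) and *Osbpl5* without any 1 of the 4 *Dnttip1* KO libraries (0.68 to 0.74). *Phlda2* was lost without D2A7 replicate 1 (0.91) and *Slc22a18* without D2A7 replicate 1 (0.58) or 2 (0.58).

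By the pattern over the 10 libraries, the genes most like *Meg3* were sought among the 12216 genes whose mean level reached 1 FPKM. On the log2(FPKM + 0.1) scale, centred on each gene's mean, *Notum* had the smallest root mean square difference (0.18), followed by *Mthfd2l* (0.19), *Gm12260* (0.20), *Ncam1* (0.21) and *Btbd11* (0.24). Each was higher in WT than in the mean of the KO libraries, by 1.13 to 1.98 on the log2 scale. *Meg3* is near 0 in all KO libraries, where the added 0.1 FPKM sets its value, so likeness to it amounts to a step between WT and KO of about this size. For *Dlk1*, whose own values varied by 0.09 (SD of log2 values), the closest were *Jtb* (0.038), *Slc4a1ap* (0.039), *CAAA01112889.1.17505.1* (0.041), *1810037I17Rik* (0.041) and *Stau1* (0.042), which amounts to likeness to a nearly flat line.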

How the data were processed

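Total RNA of 10 mESC libraries was sequenced with a stranded, paired-end protocol. Per the labels and the study's methods, the authors aligned reads to NCBIM37 with the StrongArm pipeline, used HT-seq for gene counts and deposited FPKM values, 1 column a library. The methods name a later GENCODE release for counting, but FPKM multiplied by GENCODE vM1 exon length gave whole fragments (within 0.01 for 98.1% to 98.3% of values under 100 fragments), for 33606 of 34591 genes. How FPKM was computed is not given in the sources used here.

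FPKM values were scaled by median ratio and tested as log2(FPKM + 0.1) with limma 3.58.1 (R 4.3.3), with a variance trend, for genes of at least 0.1 FPKM in 2 libraries. Called genes had a fold change of 1.5 or more and p under 0.01. Adjusted p is Benjamini-Hochberg over all genes tested. Fits of a genotype used its own clones and WT, and fits of clones used all 10 libraries. The script was tested on simulated data. Rates carry 95% exact intervals, conditional on the summed fragments for percentages of WT. Counts of 0 were set at 3 fragments for limits.

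The 7 genes, the gene lists and the tests were chosen with earlier results of these data known. Beside the 7 genes and the targeted genes, genes called in a comparison and the nearest flanking gene of each side were named. The study calls the libraries of a line biological replicates but does not state whether they came from separate cultures. In the fits of a genotype, the p-values mix the spread between libraries with that between its clones and count the libraries of a clone as independent. Only the fits with the correlation within clones treat those libraries as related. In the fits of clones, the p-values measure the spread between the libraries of a line and none between clones. How much of the spread between libraries is technical is not known. No library was left out, and 0 other columns of values were set aside. Alternatives changed the pseudocount, filter, scaling, variance model and libraries. Replicate numbers did not pair the libraries.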

Additional observations from a re-analysis of the deposited data

Results flagged for a closer look

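The next 6 genes had both libraries of E2E8 and both of E2G7, the *Elmsan1* KO clones, on opposite sides of WT. They were not the only ones, since the regulators *Atrx*, *Eed* and *Dppa3* did so too. The share over all genes was not counted. Between these clones 8406 of 17868 genes had an adjusted p below 0.05 in limma, so a difference of this kind is common. *Dio3* was lower in E2E8 than in E2G7 by a log2 difference of -2.87, for which no p is given because *Dio3* was chosen on these values. *Dio3os*, its neighbour, differed by -0.96 (adjusted p = 0.00771, limma). *Dnmt3l* differed by -2.36 (adjusted p = 4.13e-07, limma), *Dnmt3b* by -1.83 (adjusted p = 6.75e-07, limma) and *Nnat* by -1.70 (adjusted p = 0.000995, limma). *Ppp2r5c*, the nearest coding gene after *Dio3*, differed by 0.27 in the other direction (adjusted p = 0.000163, limma), which is below a fold change of 1.5. Between the *Dnttip1* KO clones, *Tet2* lay above WT in D2A7 and below it in D1E6, a log2 difference of 0.72 (adjusted p = 3.18e-06, limma). Among the other regulators, *Suz12* did likewise, while *Aff3* and *Smc1a* lay below WT in D2A7 and above it in D1E6. Here too the share over all genes was not counted. These tests rest on 2 libraries of each clone.

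In 3 of 63 groups of 4 libraries examined, 1 library stood apart from the others, and chance gives such a gap in about 1 in 20 groups. *Zfp57* in E2E8 replicate 1, at 44.5 FPKM, was separated from the next of the *Elmsan1* KO libraries by 0.82905 of a narrow range, which ended at 46.9 FPKM. *Mcts2* in 1 library of E2G7, at 16.1 FPKM, was separated from the others of *Elmsan1* KO by 0.906 of a range that began at 14.1 FPKM. *Elmsan1* itself, listed as *C130039O16Rik*, had 7.79 FPKM in D2A7 replicate 1 and up to 8.68 FPKM in the other *Dnttip1* KO libraries, a gap of 0.853 of the range.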

How the results depend on the processing

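Of 731 alternative values for the 42 fitted differences of the 7 genes, 589 moved by less than the spread between replicates, 141 moved by more, and 1 reversed: *Dio3* in *Elmsan1* KO was -0.67 in limma and 0.058 as a ratio of summed fragments relative to depth, since its clones lie on opposite sides of WT. The pseudocount set the median log2 fold change of the 3 maternal RNAs, which was -0.44 (*Dnttip1* KO) and -0.45 (*Elmsan1* KO) with a pseudocount of 1, -4.01 and -4.65 with 0.01, and -4.74 and -7.01 by voom on recovered fragments (this and the fragment ratio were chosen after seeing the data). Leaving out 1 library gave -2.07 to -1.95 and -2.19 to -2.14.

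Counts of called genes are given in the order *Dnttip1* KO, *Elmsan1* KO, *Dnttip1* KO against *Elmsan1* KO, D2A7, D1E6, E2E8 and E2G7 against WT, D2A7 against D1E6, and E2E8 against E2G7. With a pseudocount of 1 they were 540, 525, 79, 1324, 784, 1285, 707, 1025 and 826. With a mean of at least 1 FPKM, which tests fewer genes, they were 664, 603, 112, 1515, 1093, 1600, 953, 1291 and 1227. With the correlation within clones, estimated at 0.704, 0.768 and 0.856, the first 3 were 538, 486 and 54. Single clones gave 2913 (D2A7), 1963 (D1E6), 2878 (E2E8) and 1778 (E2G7) in place of the pooled counts. The pairing of libraries by replicate number was not borne out (correlation of replicate differences -0.14 to 0.19 over 10 pairs of lines, 1 over 0.1), and the replicate block gave 897, 871, 171, 2855, 1929, 2825, 1767, 2303 and 2203. Leaving out 1 library gave 596 to 1136 (lowest without WT replicate 1, and 687 without WT replicate 2), 627 to 1147 (lowest without WT replicate 1, and 684 without WT replicate 2) and 105 to 507 for the first 3. For the clones it gave 2441 to 2896 (D2A7), 1700 to 1966 (D1E6), 2417 to 2847 (E2E8), 1513 to 1806 (E2G7), 2023 to 2413 (D2A7 against D1E6) and 1797 to 2293 (E2E8 against E2G7).

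Flanking genes called in *Dnttip1* KO fell from 1 to 0 with no filter, a pseudocount of 1 or 0.01, the minimum mean of 1 FPKM, the replicate block and the correlation within clones. Those in *Elmsan1* KO fell from 2 to 1 with a pseudocount of 1, a mean of at least 1 FPKM and the correlation within clones. Partners called in *Elmsan1* KO fell from 2 to 1 with a pseudocount of 1 and the correlation within clones. Other imprinted genes called in *Dnttip1* KO fell from 10 to 6 with a pseudocount of 1 and with a mean of at least 1 FPKM. With 1 library left out, the counts in *Dnttip1* KO and *Elmsan1* KO were 0 to 1 and 2 to 3 for flanking genes, 7 to 10 and 4 to 8 for other imprinted genes, 0 to 3 and 2 to 3 for partners, and 0 to 1 and 1 to 2 for regulators. Where not given by the construction of the alternative, the cause was not tested.

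Depth limits the maternal RNAs in E2E8, which rest on 6 fragments, as well as *Dlk1*, *Rtl1* and the small RNA genes. The WT arm has 2 libraries and is shared by all comparisons with WT.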
